A study of Rattus norvegicus with 6 samples.

Results

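The results concern 2 of the 6 libraries of a rat (Rattus norvegicus) liver study: hepatocytes freshly isolated after ischemia reperfusion (IR), with and without treatment with etanercept and nitroglycerin. They were chosen by their sample titles. In IR the portal vein is clamped for a time and the blood flow is then restored. The IR hepatocytes came from animals with this injury alone. The treated IR hepatocytes came from animals with the same injury that had received etanercept at 9 mg/kg, 16 to 18 h before it, and a nitroglycerin infusion at 6 µg/kg/min before and during it. Both libraries hold poly(A)-selected RNA pooled from 3 animals 1 day after IR. The other libraries, read here only beside these, are hepatocytes of healthy animals without injury or drug (control) and whole liver of the same 3 conditions, taken from other animals. The labels name no sham operation, no animals given a drug without IR and no animals given 1 drug alone, and they give neither strain, sex nor age. Each group is 1 library, so a difference between libraries has no replicate check, no p-value was computed, and "higher" and "lower" describe these libraries. A difference can also come from the 3 animals that happened to be pooled.

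Hepatocytes are the parenchymal cells of the liver. They make most plasma proteins and carry out much of the body's amino acid, lipid and drug metabolism, so a small number of very abundant secretory and metabolic transcripts takes a large part of their mRNA. Etanercept is a soluble receptor construct that captures tumor necrosis factor, a cytokine released early in reperfusion injury by resident macrophages and able to act on hepatocytes through its receptors. Nitroglycerin releases nitric oxide, which widens vessels. In collagenase perfusion the liver is digested and the hepatocytes are separated from the other cells, of which some are usually carried over.

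The deposited files name genes by Ensembl ID only. Of 26689 IDs, 0 matched the reference gene table, so the genes below are grouped by what was measured, 4 IDs are printed, and neither pathways nor the defining markers of hepatocytes and other liver cells could be looked up. Reads in genes numbered 2716994 in treated IR and 5335184 in IR hepatocytes, and from 1945331 to 7160610 in the other libraries. Levels are CPM, reads per 1000000 reads of library depth, after scaling by the trimmed mean of M-values (TMM). Of the 13343 IDs with a read in either hepatocyte IR library, 6749 had at least 50 reads over both, and these held 99.0% of the treated and 98.8% of the untreated reads. A gene was called when its scaled ratio was at least 2-fold and the 95% Clopper-Pearson interval of the ratio, which covers counting error only, excluded equality. At 50 to 59 reads this interval spanned a median of 1.87 on the log2 scale, at 200 to 239 reads 0.88, and at 1000 to 1199 reads 0.37.

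One trait of the IR hepatocyte library bears on all that follows. Genes first needed at least 50 reads over the 2 hepatocyte IR libraries and 50 over the 3 liver libraries. A gene near 0 in IR hepatocytes met this through the treated library, so the compared libraries entered the choice. Of the genes left, 21 were picked as at least 4-fold lower in liver control than in both liver IR libraries (after adding 0.5 CPM). These 21 genes took 0.183% of the liver control reads, against 2.18% for IR and 1.93% for treated IR liver. Their share of hepatocyte reads was 2.05% for control, 0.293% for IR and 3.34% for treated IR. By share of reads the IR hepatocytes thus sat low together with liver control, and the other 4 libraries sat high. Abundant genes weigh most in such a share. Of the 21 genes, 5 were at least 8-fold lower in liver control, and these 5 took 2.15% of treated IR hepatocyte reads. By the median level of the 21 genes the IR hepatocytes stood between, at 25.7 CPM beside 6.98 for liver control. The other 4 libraries were at 60.0 CPM (liver IR) or more. The IR library was the lowest of the 3 hepatocyte libraries for 15 of the 21 genes and the highest for 3. No such count over all tested genes is given here. No label accounts for a likeness of IR hepatocytes to healthy liver, and its part in the differences between treated and untreated hepatocytes was not tested. The labels and files do not settle whether the pools were otherwise alike or whether each carries its right label, and every treated to IR ratio below rests on both. Because the IR library is 1 side of the comparison, no value can be given without it.

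Treated IR was compared with IR in hepatocytes to see which transcripts differ when both drugs are given. Of 6749 genes, 778 were higher in the treated library (11.5%) and 898 lower (13.3%). Most differences were moderate. Among the higher genes 645 lay between 2- and 4-fold, 104 between 4- and 8-fold and 29 (0.43% of genes tested) at or above 8-fold. Among the lower genes these numbers were 766, 107 and 25 (0.37%). At 4-fold or more, 133 genes were higher (1.97%) and 132 lower (1.96%). The middle 50% of all log2 ratios ran from -0.59 to 0.56, with a median of -0.02. The choice of scaling moves the split. Scaled by library totals alone, log2 ratios moved by -0.29 throughout, and the calls became 421 higher against 1429 lower, so that 22.8% of the called genes were higher in place of 46.4%. The IR library is also the deeper one, which lets genes high in it reach 50 reads more easily. With it thinned to the treated depth, 5590 genes were tested. Of these, 705 were higher (12.6%) and 634 lower (11.3%), so neither direction can be said to lead.

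**Figure D1:**
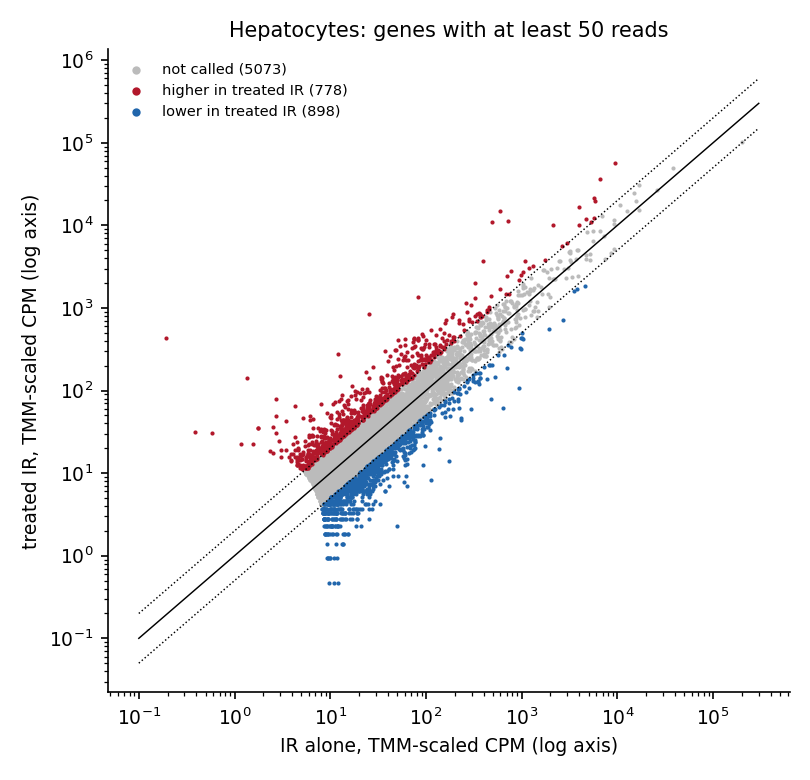
Levels of the 6749 tested genes in IR hepatocytes (horizontal, TMM-scaled CPM, log axis) and treated IR hepatocytes (vertical, same scale), 1 point a gene, with the 778 genes called higher in red and the 898 called lower in blue. The solid line is equality and the dotted lines are 2-fold. Red points extend to the top of the abundance range, where few blue points lie.

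The higher genes took a larger share of reads than the lower ones. Together the 778 genes took 30.6% of the reads of treated IR hepatocytes and 10.3% of those of IR hepatocytes. Control hepatocytes, which are not part of the comparison, gave them 26.9% of reads. In liver the same genes took 14.0% (control), 22.9% (IR) and 23.8% (treated IR) of reads, all between the hepatocyte extremes. That IR hepatocytes are low and treated ones high follows from how the genes were chosen. Of the other 4 libraries, liver control gave them the smallest share. The 95% Wilson interval of each share of reads given here spans at most 0.110 percentage points, for counting error only. The median level of a higher gene was 52.9 CPM in treated IR, 18.2 in IR and 35.4 in control hepatocytes. Its liver values were 28.4 (control), 30.2 (IR) and 29.3 CPM (treated IR), so the median gene differed little between the liver libraries.

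The 898 lower genes were less abundant. They took 2.02% of reads in treated IR hepatocytes, 6.51% in IR and 3.19% in control. Their liver shares were 5.14% for control, 3.30% for IR and 3.97% for treated IR. The order of the compared libraries again follows from the choice of genes. Of the other 4 libraries, liver control gave them the largest share. Their median level was 8.36 CPM in treated IR, 23.0 in IR and 12.7 in control hepatocytes, and from 14.0 to 14.7 CPM in the 3 liver libraries.

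**Figure D2:**
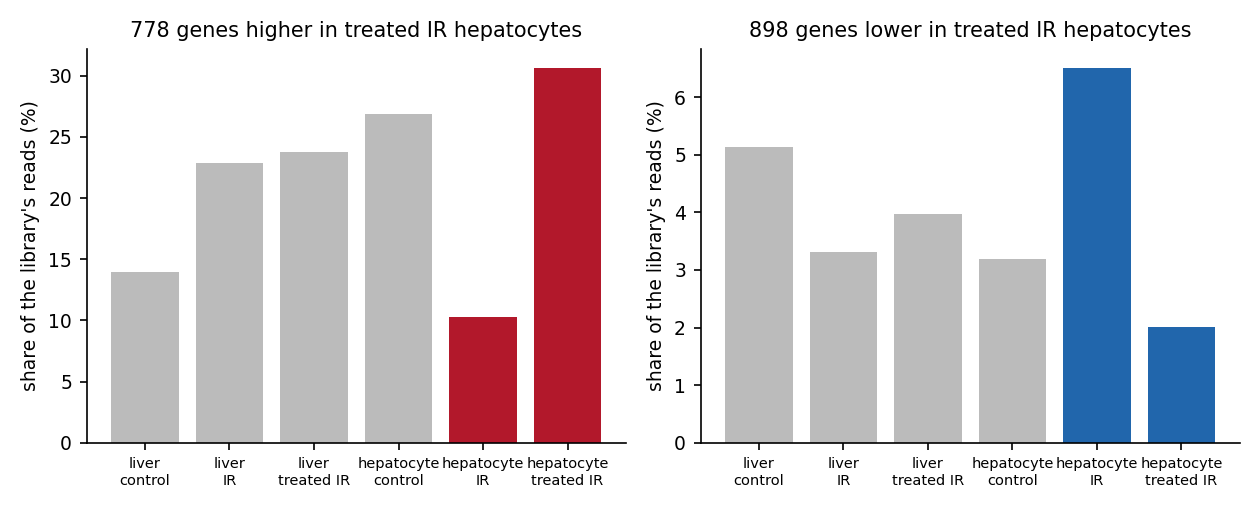
Share of each library's reads (vertical, percent) taken by the 778 genes higher (left) and the 898 genes lower (right) in treated IR than in IR hepatocytes, in the 6 pooled libraries. Coloured bars are the compared libraries, whose values chose the genes, and grey bars the others. The higher genes take 10.3% of IR and 30.6% of treated IR hepatocyte reads, and the lower genes 6.51% and 2.02%.

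The most abundant of the higher genes carried much of this shift. The 12 with the most reads took 18.1% of treated IR and 5.53% of IR hepatocyte reads, and 17.0% in control hepatocytes. Their liver shares were 6.33% for control, 14.6% for IR and 14.2% for treated IR. Liver control was the lowest of the 3 liver libraries for 10 of the 12, beside 42.5% of all tested genes and 46.3% of all 778 higher genes. The first of them, ENSRNOG00000014964, was at 56804 CPM in treated IR (122356 reads), 9539 in IR (49333 reads) and 46834 in control hepatocytes. Liver levels were 8979 CPM (control), 47380 (IR) and 25886 (treated IR). The IR hepatocytes and liver control were low for this gene, and the other 4 libraries were high. Its treated to IR ratio in hepatocytes was 5.96 (95% counting interval 5.89 to 6.02), and in liver it was 0.546 (0.543 to 0.549), the opposite direction without reaching 2-fold.

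ENSRNOG00000028896 was the higher gene whose interval lay farthest from equality. It had 923 reads in treated IR hepatocytes (429 CPM) and 1 read in IR hepatocytes (0.193 CPM). Control hepatocytes had 440 reads (137 CPM). Liver control had 0 reads, which allows up to 1.31 CPM at 3 reads, while liver IR had 810 (120 CPM) and liver treated IR 968 (129 CPM). The gene was thus near or at 0 in IR hepatocytes and liver control and plainly present in the other 4 libraries. Its hepatocyte ratio was 2216 (397 to 87627), the wide interval following from the single read. In liver the treated to IR ratio was 1.08 (0.98 to 1.18), so the 2 liver libraries after IR could not be told apart for this gene at this depth. The 12 higher genes ranked in this way had log2 ratios from 3.98 to 11.11, and liver control was the lowest liver library for 10 of them, beside the same 42.5% of tested genes.

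Among the lower genes, ENSRNOG00000021405 had the most reads. It was at 1820 CPM in treated IR (3921 reads), 4610 in IR (23844 reads) and 1883 in control hepatocytes. Liver control was at 1692 CPM, liver IR at 2022 and liver treated IR at 1869. The IR hepatocytes alone were high, and the other 5 libraries lay within a narrow range. The treated library was 2.53-fold lower than the IR library (2.45 to 2.62), and the liver ratio was 0.924 (0.903 to 0.946). Over the 12 lower genes with the most reads the log2 ratio ran from -3.12 to -1.02. Liver control was the highest of the 3 liver libraries for 10 of these 12, beside 36.9% of all tested genes.

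ENSRNOG00000020918 was the lower gene whose interval lay farthest from equality. It had 5 reads in treated IR hepatocytes (2.32 CPM) against 259 in IR hepatocytes (50.1 CPM), a 21.6-fold lower level (9.13 to 67.0). Control hepatocytes had 11 reads (3.41 CPM). Liver control was at 31.9 CPM, liver IR at 30.1 and liver treated IR at 33.4. The treated and control hepatocytes were low, while the IR hepatocytes and all 3 whole livers were high. In liver the treated to IR ratio was 1.11 (0.918 to 1.34). The 12 lower genes ranked in this way had log2 ratios from -4.69 to -2.39, with medians of 13.2 CPM in treated IR, 125 in IR and 26.7 in control hepatocytes. Liver control was the highest liver library for 7 of these 12, beside the same 36.9% of tested genes.

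**Figure D3:**
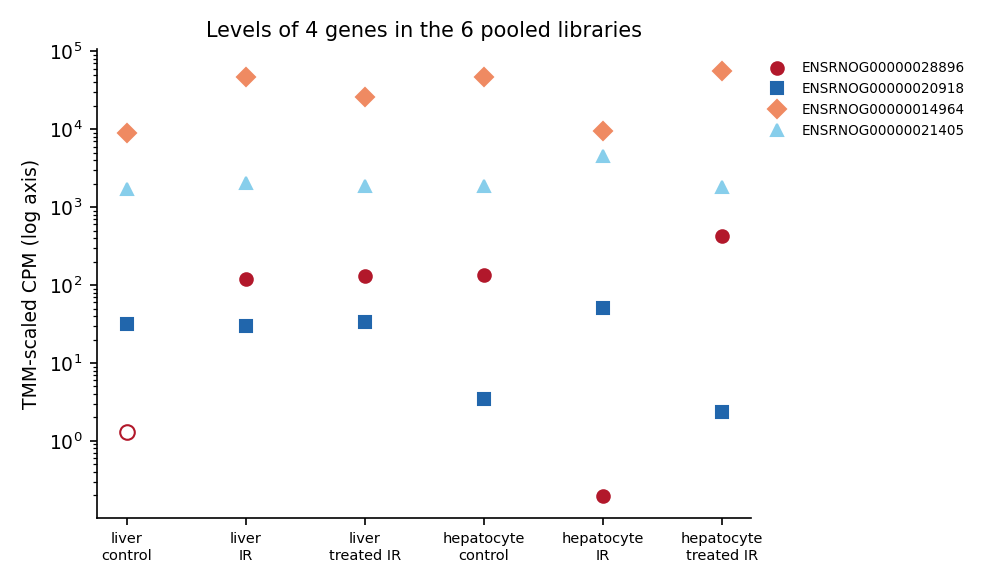
Levels of the 4 printed gene IDs (vertical, TMM-scaled CPM, log axis) in the 6 pooled libraries, 1 symbol a gene. The open circle marks a count of 0, drawn at the level of 3 reads in that library (1.31 CPM). Circles and diamonds are low in liver control and in IR hepatocytes. Squares are low in control and treated IR hepatocytes.

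The transcript with the most reads in IR hepatocytes, and so chosen by a compared library, was not called. It took 8.10% of reads in treated IR, 19.4% in IR and 10.2% in control hepatocytes. After scaling it stood at 102128 CPM in treated IR and 200208 CPM in IR hepatocytes, 1.96-fold lower (log2 ratio -0.97), just short of 2-fold. Its liver shares were 14.9% for control, 13.8% for IR and 8.76% for treated IR, so the treated library had the smaller share in both preparations. The 3 hepatocyte libraries were about equally concentrated: 33 genes held 50% of the treated reads, 37 of the IR reads and 36 of the control hepatocyte reads. In liver these numbers were 56 (control), 24 (IR) and 58 (treated IR).

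The ratio depended on how abundant a transcript was. Genes were put into classes by their level in control hepatocytes, a library outside the comparison. From 10 to 30 CPM the median log2 treated to IR ratio was -0.03 (2744 genes, with 0.5 CPM added). From 30 to 100 CPM it was 0.12 (1666 genes), and from 100 to 300 CPM 0.32 (652 genes). It was 0.30 from 300 to 1000 CPM (251 genes) and 0.53 at 1000 CPM or more (108 genes). Abundant hepatocyte transcripts were thus more often on the higher side.

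The calls followed the same order. In the class from 10 to 30 CPM, 278 of 2688 tested genes were higher (10.3%) and 345 lower (12.8%). At 1000 CPM or more, 27 of 108 were higher (25%) and 3 lower (2.78%), beside 11.5% and 13.3% of all tested genes. A change of scaling moves every class by the same amount and leaves the differences between the class medians as they are. With library totals alone the medians of the lowest and highest class were -0.32 and 0.24, and at 1000 CPM or more 20 genes were higher and 7 lower. Classes made from liver treated IR in place of control hepatocytes had medians from -0.06 (3182 genes) to 0.53 (86 genes).

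In whole liver the order over these classes ran the other way and was flatter. The median treated to IR log2 ratio there was -0.01 from 10 to 30 CPM and -0.29 at 1000 CPM or more. Whether the preparations differ was not tested, since each has 1 library a side. The slope in hepatocytes is also a slope of 1 pair of pools.

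**Figure D4:**
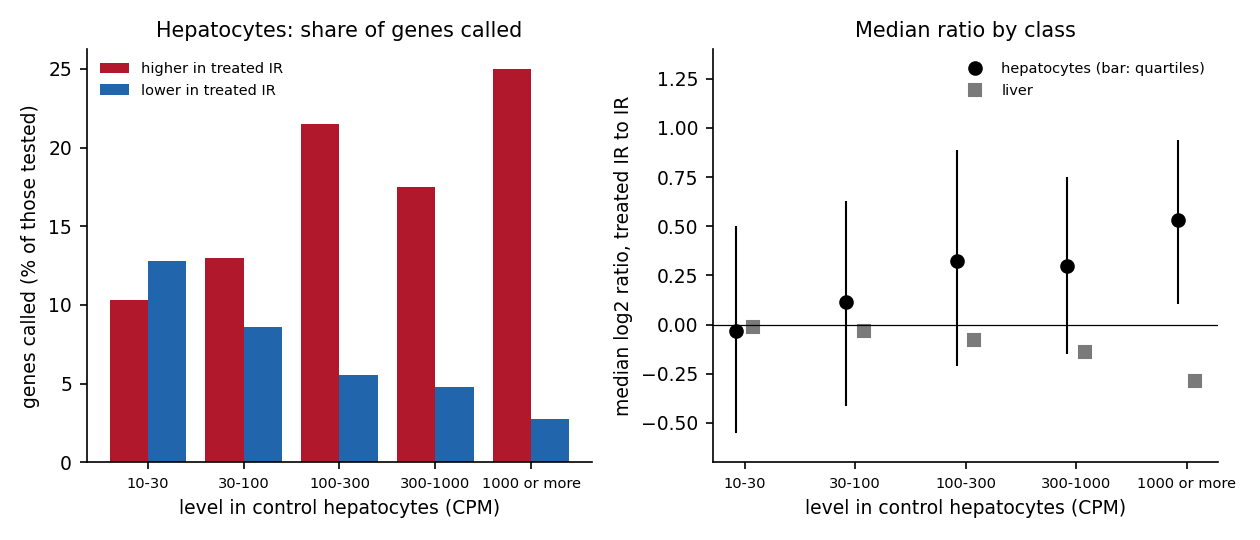
Hepatocyte genes by their level in control hepatocytes (horizontal, CPM). Left, percent of tested genes called higher (red) or lower (blue) in treated IR. Right, median log2 ratio of treated to untreated IR over all genes of the class, in hepatocytes (circles, with lines from the first to the third quartile) and in liver (squares). The hepatocyte medians run from -0.03 to 0.53 and the liver medians from -0.01 to -0.29.

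Transcripts richer in whole liver than in control hepatocytes were read as a stand-in for other liver cells, since markers could not be looked up. There were 150 genes with at least 5 CPM in every liver library and at least 8 times their level in control hepatocytes, chosen without the 2 compared libraries. Their levels summed to 3440 to 4344 CPM in liver. The sums for hepatocytes were 155 CPM for control, 515 for IR (2665 reads) and 285 for treated IR (613 reads). These are 4.49%, 15.0% and 8.27% of the lowest liver sum. That the control sum is low follows from how the genes were chosen. The IR hepatocytes thus held 1.81 times the level of the treated ones, and 90 of the 150 genes were higher in IR, 51 higher in treated IR and 9 at 0 in both. No such count over all genes is given here. The median log2 treated to IR ratio was -0.02 over all tested genes and -0.20 at 40 to 49 reads, so genes with few reads also leaned to IR. Without the gene highest in IR the sums were 465 and 282 CPM. Fewer cells of a type and less RNA per cell cannot be told apart in such pools.

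Of these 150 genes, 15 had at least 50 reads over both libraries. The deeper IR library, where their sum is higher, favours those high in it at this minimum, so calls among the 15 are not read. The part of cells carried over in the lower genes was not tested. The reverse group, at least 4-fold richer in control hepatocytes than in every liver library and at 5 CPM or more, held 8 genes. Of these, 4 were called higher in treated IR hepatocytes and 0 lower, beside 11.5% and 13.3% of all tested genes, and 8 genes are few. Their median level was 54.6 CPM in treated IR, 27.7 in IR and 36.2 in control hepatocytes.

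The same drugs were read in whole liver, which shares no library with the hepatocyte comparison. By the same rule 130 of 8676 liver genes were higher in treated IR (1.5%) and 52 lower (0.599%), fewer than in hepatocytes although the liver libraries were deeper. Of the 778 genes higher in hepatocytes, 773 were tested in liver. There 2 of them were higher and 5 lower, and their median log2 ratio was -0.07 (quartiles -0.23 and 0.11). Of the 898 lower genes, 883 were tested in liver, with 6 higher, 11 lower and a median of -0.02 (quartiles -0.22 and 0.19). Over all 6722 genes tested in both preparations 28 were higher and 34 lower in liver, with a median of -0.03. The genes that differed between the hepatocyte libraries thus had median liver ratios close to that of all genes. The hepatocyte higher genes were called higher in liver at 0.259% and lower at 0.647%. For the hepatocyte lower genes these shares were 0.680% and 1.25%, beside 0.417% and 0.506% of all genes tested in both.

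Read the other way, only 28 of the 130 genes higher in treated liver and 34 of the 52 lower were also tested in hepatocytes. The 28 had a median log2 ratio of -0.32 in hepatocytes, with 2 higher (7.14%) and 6 lower (21.4%). The 34 had a median of -0.63, with 5 higher (14.7%) and 11 lower (32.4%). Both groups were called lower in hepatocytes more often than the 13.3% of all tested genes, while 7.14% and 14.7% were called higher beside 11.5%.

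The liver control pattern was then followed at other fold limits. There were 6734 genes with at least 50 reads over the 2 hepatocyte IR libraries and 50 over the 3 liver libraries. With a limit of 2-fold, 104 of them were lower in liver control than in both liver IR libraries. In hepatocytes 45 of the 104 were higher in treated IR (43.3%, beside 11.5%) and 12 lower (11.5%, beside 13.3%), with a median log2 ratio of 0.55. The IR library was the lowest of the 3 hepatocyte libraries for 56 of the 104 and the highest for 32. For this too no count over all tested genes is given. These genes took 3.49% of reads in liver control and 3.42% in IR hepatocytes. In the other 4 libraries they took from 11.7% in liver treated IR to 15.0% in treated IR hepatocytes. Abundant genes weigh most in these shares, and the median level of the 104 genes differed less between the hepatocyte libraries. It was 13.4 CPM for the IR library, beside 15.5 for control and 18.6 for treated IR hepatocytes. For liver control it was 6.55 CPM, below all 3 hepatocyte libraries, and for liver IR and liver treated IR 18.6 and 20.2.

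The opposite group showed the mirror image. There were 63 genes at least 2-fold higher in liver control than in both liver IR libraries. Of these, 3 were higher in treated IR hepatocytes (4.76%, beside 11.5%) and 25 lower (39.7%, beside 13.3%), with a median log2 ratio of -0.69. They took 3.25% of reads in liver control and 2.50% in IR hepatocytes, against 0.990% to 1.56% in the other 4 libraries.

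At 4-fold, 14 of the 21 genes low in liver control were higher in treated IR hepatocytes (66.7%, beside 11.5% of all tested genes). Of the same 21, 1 was lower (4.76%, beside 13.3%), and the median log2 ratio was 2.67. Of the 4 genes high in liver control, 2 were lower and 0 higher, beside the same 13.3% and 11.5%, and 4 genes are few. The pattern was one of large differences in few genes. Over all 778 higher genes liver control was the lowest liver library for 46.3%, beside 42.5% of all tested genes. Over all 898 lower genes it was the highest for 37.5%, beside 36.9%. Without the 167 genes apart by 2-fold in either direction, 730 genes were higher and 861 lower. Of the 167 themselves, 48 were called higher and 37 lower, beside 11.5% and 13.3% of all tested genes.

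**Figure D5:**
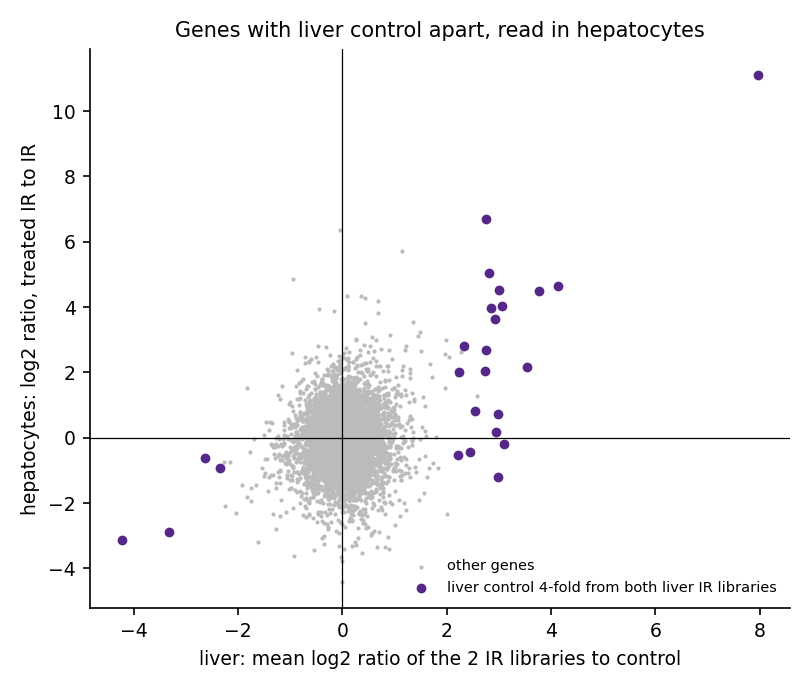
Each point is 1 of 6734 genes with at least 50 reads over the 2 hepatocyte IR libraries and 50 over the 3 liver libraries. The horizontal axis is the mean log2 ratio of liver IR and liver treated IR to liver control (0.5 CPM added), and the vertical axis the log2 ratio of treated IR to IR in hepatocytes, which shares no library with it. Purple points are the 21 genes lower and the 4 genes higher in liver control by at least 4-fold. Of the 21, 14 were called higher in treated IR hepatocytes (66.7%, beside 11.5% of all tested genes).

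Genes just inside and just outside the read minimum were called at rates like each other. Of 486 genes with 50 to 59 reads, just inside it, 52 were higher and 88 lower by the same rule (median log2 ratio -0.14). Of 542 genes with 40 to 49 reads, just outside, 58 were higher and 92 lower (median -0.20). Over all tested genes 11.5% were higher and 13.3% lower. With a minimum of 200 reads 13.6% were higher and 10.5% lower, so the split of directions differed with the number of reads.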

How the data were processed

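The values used are raw counts of reads for each gene, deposited by the authors as 1 file per library. Per the submitters' processing notes, TopHat2 2.0.13 and HTSeq 0.6.1 were among the tools. Genome build, annotation and strand handling were not given in the sources used here, and overlapping, antisense or near-identical genes may share or lose reads. The summary lines of the counting tool were left out. Reads outside annotated genes were 8.34% of uniquely aligned reads in IR and 7.57% in treated IR hepatocytes, and ambiguous reads 0.358% and 0.798%.

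Libraries were scaled by TMM (edgeR 4.0.16, R 4.3.3) on 9932 genes kept by filterByExpr (minimum count 10), with factors of 0.971 for IR and 0.794 for treated IR hepatocytes. Ratios and intervals were computed in Python 3.11.15 with scipy 1.17.1 and checked on simulated data. The alternatives were DESeq2 1.42.0 size factors, library totals, TMM on the 2 libraries, read minimums of 1, 10 and 200, a 4-fold limit and thinning. Leaving out the genes with liver control apart was added later.

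The comparison, groups and gene lists were chosen with earlier results of these data known. The rule for named genes took called genes with a symbol that had the farthest interval bound or the most reads, and list members. It named none, because no ID matched, and the lists were not run. The 4 printed IDs are the first by each ranking in each direction and were chosen after their values were seen. The groups by liver control, abundance and liver richness were also set after seeing the data.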

Additional observations from a re-analysis of the deposited data

Results flagged for a closer look

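For treated against untreated IR, 11 genes were called in opposite directions in the preparations. Of these, 6 were higher in treated than in untreated liver but lower in treated hepatocytes, and 5 showed the reverse. The 6 were 21.4% of the 28 genes tested in both preparations and higher in liver, beside 13.3% of all tested hepatocyte genes called lower. The 5 were 14.7% of the 34 genes tested in both and lower in liver, beside 11.5% called higher. No test of this difference could be made with 1 library a side. Of the 6722 genes tested in both preparations, a further 11 had lower calls in each of them and 2 had higher calls in each. The 11 were 32.4% of the 34 and the 2 were 7.14% of the 28, beside the same 13.3% and 11.5%.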

How the results depend on the processing

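The numbers of called hepatocyte genes were 778 higher and 898 lower. They changed little with DESeq2 size factors (778 and 897) and TMM on the 2 libraries (778 and 898). Leaving out the genes with liver control apart gave 730 and 861. That took out only 167 genes, 48 of them called higher and 37 lower, so the numbers of called genes could not move far. With library totals alone they were 421 and 1429, with a minimum of 200 reads 401 and 311, with a minimum of 10 reads 1114 and 1235, with no minimum 1172 and 1235, and at 4-fold 133 and 132. Thinning the IR library gave 705 and 634. Fewer genes are tested at 200 reads (2959) and after thinning (5590), and more with no minimum (13343). The 4 printed IDs kept their direction under the 3 other scalings. No paired analysis was possible because each group is 1 pooled library, and for the same reason no library could be left out. The gene lists were not run under any setting because no ID matched a symbol. Depth limits low levels: the treated library has the fewer reads of the pair, and intervals cover counting error, not the variation between pools of animals.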
